A study of Drosophila melanogaster with 24 samples.

Results

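Chemosensory genes of Drosophila melanogaster were followed through RNA-seq of heads and thoraces: odorant binding proteins (Obp), odorant receptors (Or), ionotropic receptors (Ir) and gustatory receptors (Gr). Members were the rows whose symbol is Obp, Or, Ir or Gr followed by a digit, with the odorant co-receptor Orco added, and whose mean level reached 0.5 counts per 1000000 reads in genes (CPM) in at least 1 group. Of 15682 symbols, 231 matched by name and 112 of these reached that level: 30 Obp, 43 Or, 23 Ir and 16 Gr genes. The rest comprised 9 genes with no read in any of the 24 libraries and others below the threshold. Just inside it lay Gr2a (0.527 CPM in its highest group), Or67b (0.548 CPM) and Ir52a (0.564 CPM), and just outside Or83c (0.489 CPM), Gr93a (0.458 CPM) and Gr39a (0.448 CPM).

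Flies smell and taste with sensory neurons housed in hairs on the antennae, maxillary palps, mouthparts, legs and wing margins. An odorant receptor neuron usually makes 1 tuning receptor, which forms an ion channel together with Orco; ionotropic receptors, relatives of glutamate receptors, likewise work with co-receptors such as Ir8a, Ir25a, Ir76b and Ir93a and sense acids, amines, humidity and temperature. Gustatory receptors detect sugars, bitter compounds and, in the antenna, carbon dioxide. Odorant binding proteins are small secreted proteins that support cells release in large amounts into the fluid around the sensory dendrites, and several are also made in fat body, glia or the male reproductive tract.

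All libraries came from males aged 10 days that carried the Mhc driver, which drives transgenes from the myosin heavy chain promoter in muscle. Heads were of 2 genotypes, Mhc>Amyrel (overexpression of Amyrel, an amylase-related gene) and the Mhc>+ control, which the labels call an isogenic control. The titles of the control head libraries name Amyrel in the cross, whereas their genotype label gives Mhc>+; groups follow the genotype label. Thoraces, mostly skeletal muscle, were of 6 genotypes: knockdown by RNAi of ProsB1 or ProsB5 (proteasome subunits), Ter94 (the VCP/p97 ATPase) or CG6272 (a bZIP transcription factor), and the control RNAi lines against GFP and white. Each group had 3 libraries; the labels do not say how many animals went into one, nor whether they came from separate cultures. Heads are described as mostly brain and retina tissue, and control heads carried the driver without the Amyrel transgene.

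Reads in genes numbered 47540753 to 75689088 in head libraries and 28870166 to 79158181 in thorax libraries, so that 3 reads corresponded to at most 0.0631 CPM in heads and 0.104 CPM in thoraces. Amyrel stood at 6.92, 6.90 and 7.22 CPM in Amyrel heads against 0.0925, 0.122 and 0.0615 CPM in control heads. The targeted transcripts were lower in all 4 knockdowns, by log2 fold changes of -0.93 for Prosbeta1, -1.05 for Prosbeta5, -0.61 for TER94 and -0.94 for CG6272. Photoreceptor genes marked the heads (ninaE, the major rhodopsin, 32260 CPM or more there), while Mhc ranged from 1374 to 1617 CPM in heads and from 3607 to 6030 CPM in thoraces. Marker genes of other tissues were uneven among the thoraces. The photoreceptor gene ninaE exceeded 100 CPM in GFP replicates 2 and 3 and white replicate 1. Acp36DE, a seminal fluid protein of the male accessory gland, exceeded 5 CPM in ProsB5 replicate 1, GFP replicate 1 and white replicates 1 and 2. Whether these reads came from tissue carried over was not tested. Ter94 replicates 2 and 3 were more alike than any other pair: the mean chi-square per gene between their counts was 1.76, against 46.6 and 45.3 for each of them with replicate 1 and 11.9 or more for pairs within the other groups. They still differed beyond sampling noise, which does not show that they were independent samples. Both were kept as 2 libraries, with the result for their sum given beside the Ter94 counts. If they were not independent, the SE and p-values of Ter94 thoraces would be too small. In bulk tissue, fewer cells of a type and less RNA per cell cannot be told apart.

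The families differed in level. Odorant binding proteins dominated: their 30 members summed to 3116 to 3514 CPM in Amyrel heads and 2904 to 3518 CPM in control heads, and to 1653 to 4062 CPM in the 18 thorax libraries. Odorant receptors summed to 176 to 201 CPM in Amyrel heads and 167 to 186 CPM in control heads, but to no more than 16.6 CPM in any thorax. Ionotropic receptors summed to 111 to 119 CPM in Amyrel heads and 136 to 145 CPM in control heads, with 29.5 to 60.9 CPM in thoraces. Gustatory receptors summed to 18.1 to 23.9 CPM in Amyrel heads and 17.99 to 18.8 CPM in control heads, and to 7.27 to 20.5 CPM in thoraces. The Obp and Gr sums thus overlapped between heads and thoraces, whereas the Or and Ir sums did not.

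**Figure D1:**
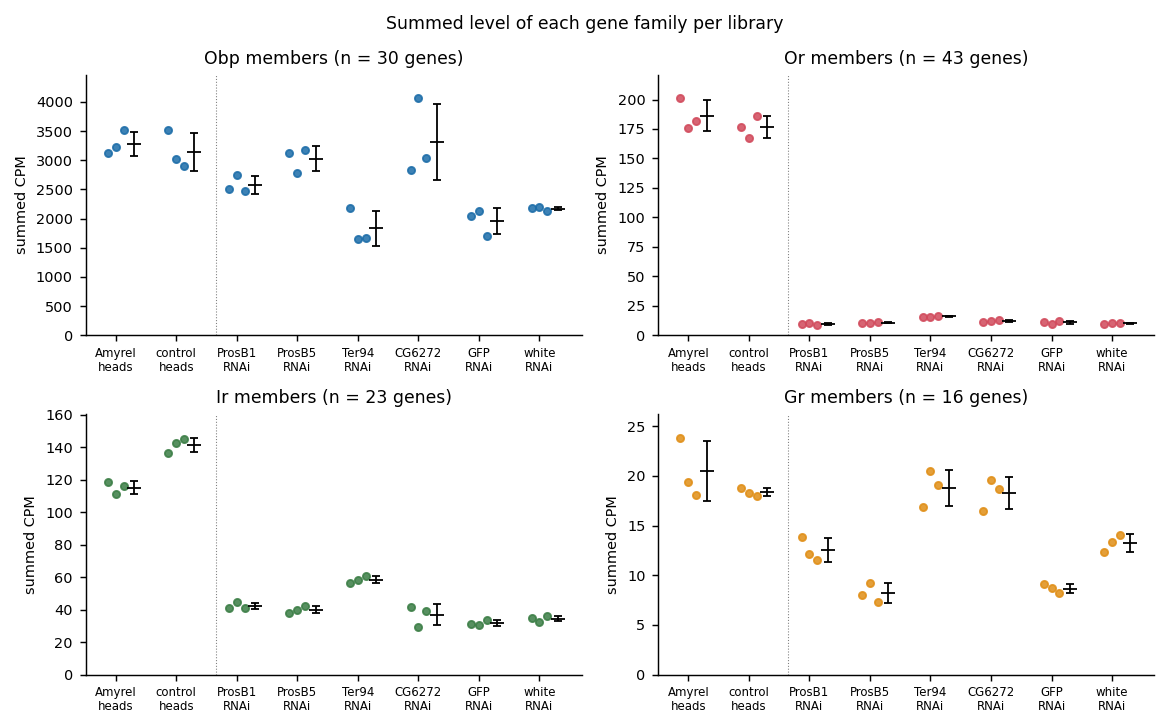
Summed CPM of the members of each family in every library (points), with the mean and SD of each group of 3 (bar at the right of each group); heads stand left of the dotted line and thoraces right of it. The Or sum is 167 CPM or more in all 6 heads and at most 16.6 CPM in all 18 thoraces, while the Obp and Gr sums overlap.

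Per kilobase of exon, which allows genes to be compared, the median level of Obp members in heads was 22.1 CPM per kb, of Or members 1.14, of Ir members 0.830 and of Gr members 0.520. The Obp members with the most reads over the 6 heads were Obp99c (868 ± 100.3 CPM, SD), Obp44a (823 ± 147), Obp56d (425 ± 50.4), Obp99b (332 ± 123), Obp57c (172 ± 17.1), Obp56g (166 ± 13.5) and Obp49a (98.3 ± 14.7). Their order depended on the genotype: Obp44a had more reads than Obp99c in every Amyrel head and fewer in every control head. Per kilobase, Obp99c averaged 1218 ± 133 CPM per kb in Amyrel heads and 1378 ± 138 CPM per kb in control heads, above the Obp44a means of 886 ± 27.2 and 643 ± 40.3 CPM per kb (SD, n = 3). Obp44a is made by glia of the nervous system, and Obp49a acts in taste hairs, where it binds bitter compounds. Obp99c, Obp56d and Obp44a alone made up 62.3 to 68.7% of the Obp sum in heads. Orco, at 90.1 ± 6.74 CPM over the heads, accounted for 48.7 to 50.6% of the whole Or sum there, and the tuning receptor with the highest mean per kb was Or43b, at 5.61 to 6.197 CPM per kb in Amyrel heads and 6.53 to 7.26 CPM per kb in control heads. Among ionotropic receptors the order differed by genotype. In Amyrel heads Ir62a (8.90 CPM per kb) and Ir76a (8.09) had higher means than Ir75a (6.94) and Ir75b (5.46), whereas in control heads Ir75a (15.5) and Ir75b (12.98) were above Ir62a (10.1) and Ir76a (7.10). Gustatory receptors were low and close together: Gr63a, Gr64f and Gr64a averaged 2.01, 1.48 and 1.39 CPM per kb in Amyrel heads and 1.15, 1.54 and 1.52 CPM per kb in control heads, and Gr63a ranged from 1.20 to 3.16 CPM per kb within the Amyrel heads. Over the 18 thoraces the 5 members with the most reads, in CPM, were Obp99c (852 ± 222, SD), Obp56d (429 ± 233), Obp57c (287 ± 34.0), Obp99b (222 ± 100.4) and Obp57a (176 ± 37.2).

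The first comparison asked how the chemosensory genes of the head stand when Amyrel is overexpressed in muscle. Few were called, and the 3 that were called under every alternative lay in 2 gene clusters: Ir75a and Ir75b, receptors for short-chain acids, were lower, and Or65c was higher, in Amyrel heads. Obp44a, Obp56e and Ir92a rose more modestly. Of the 112 members, 103 passed the low-count filter (9 did not), and 6 were called at an adjusted p under 0.05 by edgeR's quasi-likelihood test with Benjamini-Hochberg adjustment over all genes: 4 higher and 2 lower. Over all 10748 genes tested 1.51% were called, 0.791% higher and 0.716% lower, against 5.83% of the members tested. The median log2 fold change was 0.07 for the 103 members and 0.0023 for all genes, and the median size of the change was 0.16 and 0.08. By family, 3 of 20 tested Ir, 2 of 26 Obp, 1 of 43 Or and 0 of 14 Gr members were called.

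Ir75a, which together with the co-receptor Ir8a serves acetic acid sensing in the antenna, stood at 13.2, 14.0 and 14.1 CPM in Amyrel heads against 28.3, 32.3 and 31.6 CPM in control heads. Every Amyrel head lay below every control head, and the log2 fold change was -1.15 ± 0.06 (SE; edgeR adjusted p = 0.000332). Ir75b, a neighbouring gene for butyric acid sensing, stood at 8.75, 10.7 and 10.3 CPM in Amyrel heads against 21.4, 25.6 and 23.8 CPM in control heads, a log2 fold change of -1.24 ± 0.10 (edgeR adjusted p = 0.00181). The third gene of this cluster, Ir75c, for propionic acid sensing, stood at 1.85, 1.35 and 1.69 CPM in Amyrel heads against 1.02, 1.12 and 1.02 CPM in control heads. Its groups did not overlap either, but in the direction opposite to Ir75a and Ir75b, and the difference was not called (log2 0.63 ± 0.15, edgeR adjusted p = 0.116). The co-receptor Ir8a had 5.55, 3.00 and 3.68 CPM in Amyrel heads against 3.38, 3.00 and 3.98 CPM in control heads, with overlapping groups.

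Or65c stood at 2.86, 3.51 and 3.72 CPM in Amyrel heads against 0.581, 0.459 and 0.553 CPM in control heads, the largest change among the called members (log2 2.67 ± 0.17, edgeR adjusted p = 0.000521). Its neighbours Or65a and Or65b, with which it is expressed in a class of antennal trichoid neurons, were not called and lay lower: Or65b stood at 1.35, 1.47 and 1.26 CPM in Amyrel heads against 2.40, 2.07 and 1.97 CPM in control heads (log2 -0.65 ± 0.14, edgeR adjusted p = 0.0767). Or65a stood at 1.07, 1.11 and 1.08 CPM in Amyrel heads against 2.10, 1.36 and 1.84 CPM in control heads (log2 -0.70 ± 0.18, edgeR adjusted p = 0.140). All 3 genes had groups that did not overlap. The counts of Or65a, Or65b and Or65c, and those of the Ir75 genes, could be affected where reads of close paralogs were shared, since how such reads were counted is not stated.

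**Figure D2:**
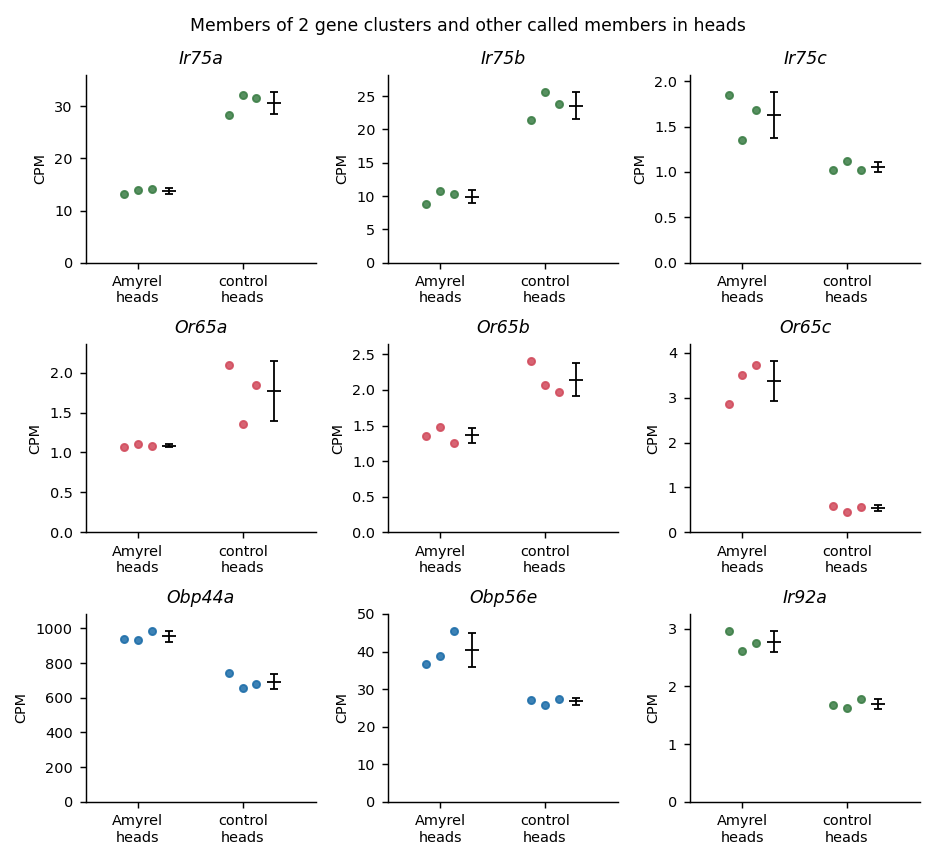
CPM per head library (points) with mean and SD (bar) for the Ir75 cluster, the Or65 cluster, and Obp44a, Obp56e and Ir92a, Amyrel heads left and control heads right. Ir75a and Ir75b are lower in Amyrel heads while Ir75c is not called, and Or65c is higher while Or65a and Or65b are not called.

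Obp44a, the most abundant of the called members, stood at 941, 932 and 986 CPM in Amyrel heads against 741, 658 and 678 CPM in control heads (log2 0.47 ± 0.07, edgeR adjusted p = 0.0203). Obp56e stood at 36.7, 38.9 and 45.5 CPM in Amyrel heads against 27.0, 25.8 and 27.3 CPM in control heads (log2 0.61 ± 0.09, edgeR adjusted p = 0.0203). Ir92a, an ammonia and amine receptor of the antenna, stood at 2.97, 2.62 and 2.75 CPM in Amyrel heads against 1.68, 1.62 and 1.78 CPM in control heads (log2 0.72 ± 0.11, edgeR adjusted p = 0.0227). The groups did not overlap for any of these 3 genes. With the replicate number as a block, 2 higher and 2 lower calls were left, 4 of the 6 genes, and Obp44a and Ir92a were no longer called. Without Amyrel replicate 2, control replicate 2 or control replicate 3, 3 members were called. Ir75a, Ir75b and Or65c were called under all 11 alternatives run; Obp44a, Obp56e and Ir92a lost their call under 5, 4 and 6 of them.

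Some members differed by as much without passing the test. Obp99d stood at 5.53, 3.35 and 1.97 CPM in Amyrel heads against 0.978, 0.918 and 1.09 CPM in control heads (log2 1.86 ± 0.35, edgeR adjusted p = 0.0525). Or56a, the receptor for the mould odour geosmin, stood at 2.71, 2.33 and 1.95 CPM in Amyrel heads against 1.33, 1.36 and 1.54 CPM in control heads (log2 0.73 ± 0.15, edgeR adjusted p = 0.0707). Obp99b, a binding protein known from the male fat body, had 209, 249 and 291 CPM in Amyrel heads against 545, 401 and 297 CPM in control heads (log2 -0.72 ± 0.22, edgeR adjusted p = 0.191). These 3 were chosen for mention after their values were seen.

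The co-receptors were at similar levels. Orco stood at 101.3, 85.6 and 90.6 CPM in Amyrel heads and 86.4, 82.8 and 94.0 CPM in control heads, and none of Orco, Ir8a, Ir25a, Ir76b and Ir93a was called. Of 16 accessory genes of smell and taste that are not members, among them lush, Snmp1, Os-C and a10, all were tested and 0 were called. Marker lists of neurons (6 genes), glia (5), muscle (8) and fat body (6) had 0 calls, and 1 of 12 photoreceptor genes, trpl, was called (log2 -0.41). The 2 genotypes also differed in w, the eye pigment transporter gene white, with 22.4, 22.1 and 23.4 CPM in Amyrel heads against 9.14, 9.91 and 10.3 CPM in control heads.

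The called members lie on 3 chromosome arms: Ir75a, Ir75b and Or65c on 3L, Ir92a on 3R, Obp44a and Obp56e on 2R. Of the 10748 genes tested, 98.6% could be placed on an arm by symbol. The share of genes called was 2.74% on 3L and 2.20% on 3R, against 0.948% on 2L, 0.737% on 2R and 0.689% on X. Among the 10 tested genes on each side of Ir75a, 3 of 20 were called (Ir75b, CG32191 and cln3), among those around Or65c 0 of 20, around Obp56e 1 of 20, around Ir92a 0 of 20 and around Obp44a 0 of 20. Overexpression and other genetic differences between the 2 genotypes cannot be told apart.

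The second comparison set control heads against control thoraces, the 6 libraries of the GFP and white RNAi lines. Nearly all odorant receptors were higher in control heads. Most ionotropic and gustatory receptors were higher there too, but many were also present in thoraces. With knockdown thoraces and Amyrel heads included, 11 of 23 Ir and 10 of 16 Gr members reached 0.5 CPM in both tissues. Among these, Gr63a and Gr43b reached it in thoraces only in the Ter94 group. The odorant binding proteins were divided, with abundant members on each side. Of the 112 members, 99 reached 0.5 CPM in either head group and 61 in any thorax group, knockdowns included. In both tissues 48 did so, in heads alone 51, of which 36 were Or genes, and in thoraces alone 13. These counts do not describe the control groups alone. All control heads lay above all control thoraces for 87 members and below them for 14. That count was not made over all genes, so it is not read as a trait of these families. The test called 81 members higher and 16 lower of 108 tested, where 80.1% of 11029 genes were called, 40.1% higher and 40% lower. The median log2 fold change was 2.49 over the 108 members and -0.01 over all genes. Many members passed the low-count filter through the tissue where they were high, so these counts are descriptions. By family, 41 Or members were higher and 1 lower of 43 tested, 17 Ir higher and 3 lower of 21, 10 Gr higher and 2 lower of 15, and 13 Obp higher and 10 lower of 29. Tissue, driver genotype and library set cannot be told apart in this comparison.

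**Figure D3:**
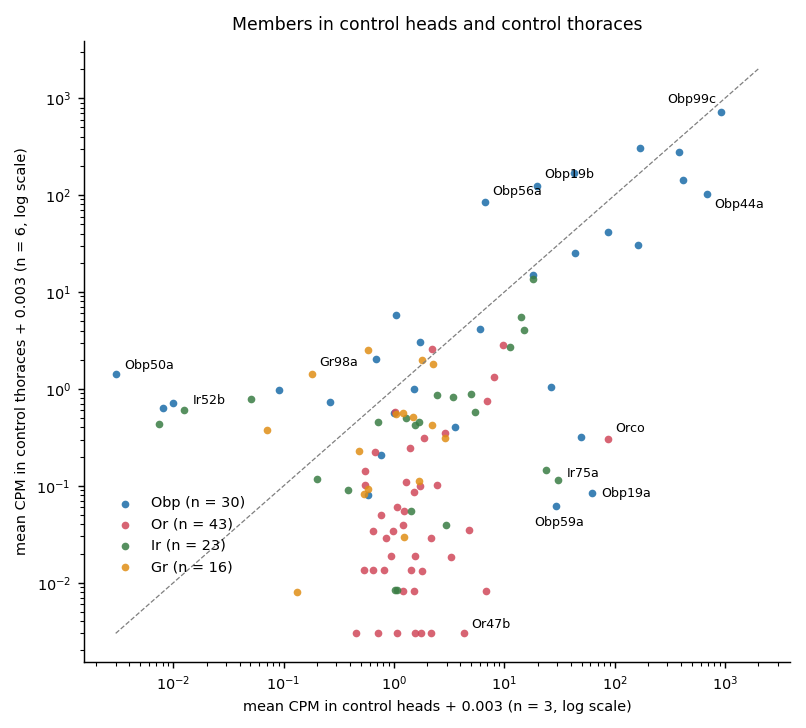
Mean CPM of each of the 112 members in control heads (horizontal axis) and control thoraces (vertical axis), both on log scales after adding 0.003, coloured by family; the dashed line marks equal levels. Most Or members lie below the line, with 7 at 0 in all control thoraces along the bottom, while Obp members lie on both sides.

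Obp19a, Obp59a and Orco passed the low-count filter only through the heads, where they are high, so no p-value is given for them. Obp19a had the largest fitted fold change: 63.3, 59.0 and 65.4 CPM in control heads, against 0 in 5 of the 6 control thoraces and 0.484 CPM in GFP replicate 3 (log2 11.32 ± 0.49). The fitted value depends on the prior count, since white thoraces had no read, and ran from 8.38 to 14.48 over the alternatives; summed reads gave a ratio of 797. Obp59a, needed for humidity sensing, stood at 29.4, 29.2 and 30.1 CPM in control heads, against 0 in 4 of the 6 control thoraces and 0.323 CPM at most, again in GFP replicate 3 (log2 9.39 ± 0.42). Orco stood at 82.8 to 94.0 CPM in control heads against 0.0913 to 0.904 CPM in control thoraces, its highest value also in GFP replicate 3 (log2 8.05 ± 0.27). That library also held the antennal genes Os-C (2.84 CPM) and a10 (1.87 CPM), which reached no more than 0.426 and 0.0724 CPM in the other thoraces. Without GFP replicate 3, 99 members were called in place of 97.

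Or47b, a pheromone receptor of the antenna, stood at 4.68, 4.07 and 4.26 CPM in control heads and had no read in any control thorax. It and 6 other receptors at 0 there give lower bounds only, computed against 3 reads summed over the 6 libraries: Or47b was at least 279-fold higher in control heads, Or85e at least 138-fold, Or65a at least 114-fold, Or98a at least 96.6-fold, Or42a at least 65.3-fold, Or33c at least 44.8-fold and Or23a at least 29.6-fold. Or85e, Or42a and Or33c belong to the maxillary palp, whereas Or65a and Or98a belong to the antenna. Or46a, another palp receptor, had 6.94, 5.998 and 7.46 CPM in control heads and a single read over the 6 control thoraces, a ratio of 1294 (95% counting interval 232 to 51130). Its exons overlap those of CG12917 on the same strand. Ir75a stood at 28.3 to 32.3 CPM in control heads and 0 to 0.323 CPM in control thoraces (a ratio of summed reads of 278), and Ir75b at 21.4 to 25.6 CPM in control heads and 0 to 0.388 CPM in control thoraces (167). Ir75c and the phenylacetic acid receptor Ir84a each had a single read over the control thoraces, for ratios of 202 (95% counting interval 35.8 to 8016) and 195 (34.6 to 7737).

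Among co-receptors the difference was much smaller for some ionotropic genes than for Orco. Ir25a stood at 14.5, 12.8 and 14.7 CPM in control heads against 5.01 to 5.97 CPM in control thoraces (log2 1.13 ± 0.07, edgeR adjusted p = 3.64e-07). Ir76b stood at 11.2, 10.4 and 12.3 CPM in control heads against 2.19 to 3.19 CPM in control thoraces (log2 1.83 ± 0.12, edgeR adjusted p = 3.99e-07). Ir8a gave log2 1.90 ± 0.17 and Ir93a, a co-receptor for cooling and humidity, log2 4.58 ± 0.28. Control thoraces thus held Ir25a and Ir76b at several CPM while Orco stayed under 1 CPM in each of them.

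A smaller set was higher in thoraces. Obp50a had no read in the 3 control heads and 1.23 to 1.58 CPM in control thoraces. It was at least 89.8-fold lower in control heads, computed against 3 reads summed over the heads. Because Obp50a passed the low-count filter only through the thoraces, no p-value is given for it. The ionotropic receptors Ir52a, Ir52b and Ir52c, members of a taste receptor clade described in leg bristles, had 0.0132 CPM or less, 0.0153 CPM or less and 0.0264 to 0.0765 CPM in control heads, against 0.192 to 0.608, 0.415 to 0.849 and 0.535 to 0.974 CPM in control thoraces. Summed over libraries Ir52a had 1 read in control heads and 83 in control thoraces, a control thorax to control head ratio of 82.2 (95% counting interval 14.4 to 3285), and Ir52b had 2 and 116, a ratio of 57.4 (15.6 to 480). The fitted log2 fold change of Ir52c was -4.16. Obp56a stood at 8.76, 6.47 and 4.96 CPM in control heads against 71.3 to 111.5 CPM in control thoraces (log2 -3.84 ± 0.20). Obp19b stood at 20.1, 20.3 and 18.9 CPM in control heads against 114.5 to 131.2 CPM in control thoraces (log2 -2.88 ± 0.06). Gr98a (log2 -3.19), Gr59f (-2.56), Obp83g (-2.25), Obp57a (-2.18), Obp57e (-1.78), Obp99a (-1.37), Obp57c (-1.10), Obp57b (-1.06) and Or71a (-0.45) were also lower in control heads. Or71a was the 1 odorant receptor in that direction and lost its call under 6 of 20 alternatives, and Obp99a under 2 of them.

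Obp22a, a seminal fluid protein gene, was called lower in control heads as well, but its reads came from few libraries. Because it passed the low-count filter only through the control thoraces, no p-value is given. It had 0, 0.0153 and 0 CPM in control heads; in control thoraces it had 1.83 CPM in GFP replicate 1, 0.365 and 1.60 CPM in white replicates 1 and 2, and 0 in the other 3. Acp36DE stood at 60.2, 6.42 and 36.6 CPM in those same 3 libraries and at most 0.447 CPM in the other control thoraces. Without GFP replicate 1, or without white replicate 2, Obp22a was no longer called, and without the 3 thoraces high in Acp36DE it had no read left in a control thorax. Summed over 10 accessory gland genes, control thoraces ranged from 0.377 to 142 CPM, and the part of this tissue in the result was not tested.

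Genes of the same chromosomal band, marked by a shared number, went both ways in some groups and one way in others. In the Obp56 group Obp56e (log2 4.46), Obp56g (2.17) and Obp56h (7.33) were higher in control heads and Obp56a lower, while Obp56d and Obp56f were not called. In the Obp19 group Obp19a (11.32) and Obp19c (2.98) were higher and Obp19b lower. The 4 Obp57 members (a, b, c and e) were all lower, as were the 3 Ir52 members, and the 3 Ir75 and 3 Or65 members were all higher. Obp99c, the member with the highest mean per kb over heads and over thoraces, stood at 1029, 872 and 865 CPM in control heads and 583 to 797 CPM in control thoraces and was not called (log2 0.13 ± 0.08, edgeR adjusted p = 0.169). Its exons overlap those of Gycalpha99B on the opposite strand; in all, 22 members share exonic sequence with another gene in the annotation used.

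Of the 16 accessory genes, 7 were higher and 9 lower in control heads. The antennal genes a10 (log2 10.13), a5 (9.86) and Os-C (8.88) were among those higher, and the taste genes CheA29a (-5.35), CheB42a (-4.51) and ppk23 (-4.40), known from pheromone-sensing bristles, among those lower. All 12 photoreceptor and 6 neuron markers were higher in control heads and all 8 muscle markers lower.

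The 2 control RNAi lines also differed from each other. White thoraces differed from GFP thoraces at 11 of 66 tested members (16.7%), 7 higher and 4 lower. Over all 11262 genes tested 12.9% were called, 6.79% higher and 6.09% lower, so the share of members lay near the background. Gr43a, the internal and gustatory fructose receptor, stood at 3.68, 5.14 and 5.85 CPM in white thoraces against 0.0913, 0.0958 and 0.129 CPM in GFP thoraces (log2 5.50 ± 0.38). In the fit shared with ProsB1, ProsB5 and Ter94 thoraces it passed the low-count filter only through the white libraries, so no p-value is given. Obp83g stood at 10.1, 10.4 and 9.12 CPM in white thoraces against 1.55, 2.36 and 1.55 CPM in GFP thoraces (log2 2.44 ± 0.16, edgeR adjusted p = 1.44e-06). Ir76a (log2 1.72), Obp99a (2.05), Obp44a (1.07), Obp18a (0.45) and Obp57a (0.37) were also higher in white thoraces, and Obp56h (-1.88), Ir8a (-0.87), Ir40a (-0.84) and Obp83ef (-0.42) lower. The exons of Gr43a overlap those of Dhx15, and those of Ir76a overlap CG14102, each on the opposite strand.

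Some of these genes differed between knockdowns in the same way. Gr43a stood at 0.0312 to 0.257 CPM in ProsB1, ProsB5 and Ter94 thoraces, near the GFP level, but at 4.85, 10.2 and 4.79 CPM in CG6272 thoraces, near the white level. Obp83g stood at 7.49 to 9.44 CPM in ProsB1 and ProsB5 thoraces and 8.13 to 12.8 CPM in CG6272 thoraces, near white, and at 2.11 to 2.60 CPM in Ter94 thoraces, near GFP. Against the mean of both lines Gr43a was therefore called lower in ProsB1, ProsB5 and Ter94 thoraces and higher in CG6272 thoraces, but against GFP alone its fold change in ProsB5 and Ter94 thoraces had the opposite sign and was not called. Obp83g in ProsB1 thoraces changed sign against white alone. For this reason a change is described below as holding against each line where it was called in the same direction against GFP alone and white alone.

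**Figure D4:**
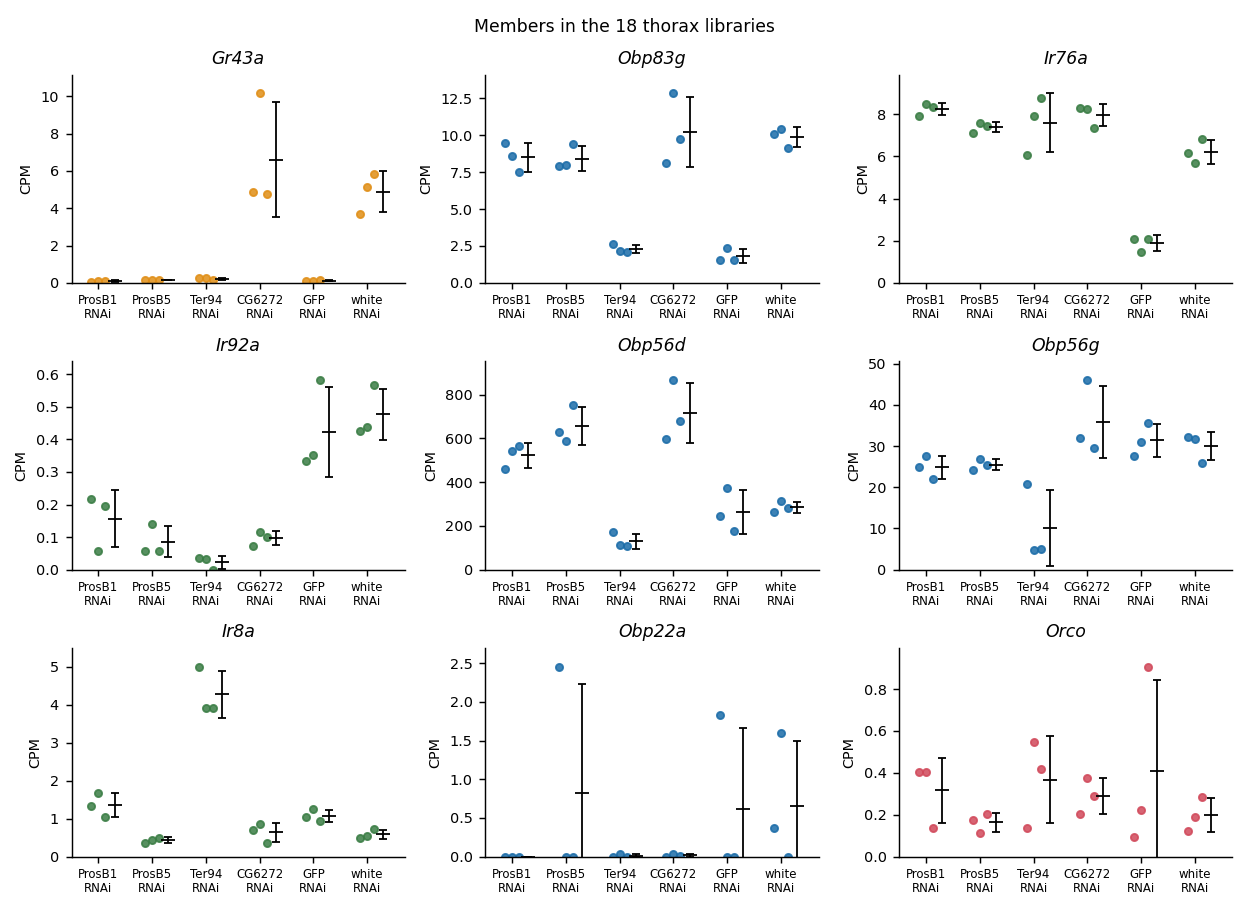
CPM of 9 members in the 18 thorax libraries (points) with the mean and SD of each group (bar), knockdowns left and the GFP and white control lines right. Gr43a and Obp83g fall into high and low groups that split the 2 control lines. Obp22a is high in ProsB5 replicate 1, GFP replicate 1 and white replicate 2 and lower in white replicate 1, and Orco stands apart in GFP replicate 3.

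The knockdown comparisons used the average of both control lines, and all 4 share these controls. Only 66 of the 112 members passed the filter for the first 3 knockdowns and 60 for CG6272; 34 of the 43 Or members (35 for CG6272) were too low to test. ProsB1 thoraces had 10 higher and 5 lower members, where 21.3% of 11262 genes were called, 11.6% higher and 9.73% lower. ProsB5 thoraces had 18 higher and 4 lower, where 31% of genes were called, 17.3% higher and 13.8% lower. Ter94 thoraces had 20 higher and 18 lower, where 58.1% were called, 29.7% higher and 28.4% lower. CG6272 thoraces had 12 higher and 2 lower, where 22.8% of 10784 genes were called, 13.3% higher and 9.53% lower. The called shares of tested members, 22.7, 33.3, 57.6 and 23.3%, lay close to these backgrounds. The median log2 fold changes of the members were 0.11, 0.07, 0.09 and 0.24, against 0.00, 0.01, 0.00 and 0.02 over all genes. Called against each control line were 5 higher and 0 lower members in ProsB1 thoraces, 9 and 1 in ProsB5, 13 and 11 in Ter94, and 5 and 1 in CG6272. The matching shares over all genes were not computed, so these counts are descriptions. The 13 rises in Ter94 thoraces include Gr43b, Gr59d, Gr63a and Ir51a, which passed the low-count filter only through the Ter94 libraries.

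In ProsB1 thoraces the members higher against each line were Ir85a, Gr98a, Obp56d, Obp49a and Ir25a. Ir85a stood at 0.592, 0.834 and 1.05 CPM in ProsB1 thoraces and at 0.0608 to 0.183 CPM in the 6 control thoraces (log2 2.77 ± 0.44). Because Ir85a passed the low-count filter only through the ProsB1 and ProsB5 libraries, no p-value is given for it. Its exons overlap those of Pif1A and Pif1B on the opposite strand, and its level cannot be told apart from theirs without strand. Gr98a stood at 6.42, 4.60 and 4.24 CPM in ProsB1 thoraces and 0.926 to 1.80 CPM in control thoraces (log2 1.75 ± 0.34, edgeR adjusted p = 0.00256). Obp56d stood at 458, 544 and 566 CPM in ProsB1 thoraces and 177 to 375 CPM in control thoraces (log2 0.86 ± 0.20, edgeR adjusted p = 0.00829). Ir76a (log2 1.20) and Obp83g (0.93) were the other large rises against the mean. Of the 5 calls in the lower direction, Gr43a (-3.08), Ir92a (-1.57), Obp19c (-1.20), Ir41a (-0.95) and Or43b (-0.29), none held against each line. The split was unsteady: ProsB1 thoraces had 13 higher and 2 lower members with scaling by library totals, 12 and 3 with the replicate block (13 of the 15 calls shared), and 10 and 1 with no low-count filter. With 1 library left out, 1 to 3 members were lower.

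In ProsB5 thoraces Ir85a was again among the largest changes (1.01, 0.784 and 0.698 CPM, log2 2.79 ± 0.44). Its p-value is left out here too, since it passed the low-count filter only through the ProsB1 and ProsB5 libraries. Obp99a rose against the mean (log2 1.92) but not against white alone. Obp56e stood at 2.88, 1.90 and 3.60 CPM in ProsB5 thoraces and 0.700 to 1.53 CPM in control thoraces (log2 1.38 ± 0.29, edgeR adjusted p = 0.00325). Obp99b stood at 510.1, 275 and 349.8 CPM in ProsB5 thoraces and 97.9 to 221 CPM in control thoraces (log2 1.35 ± 0.24, edgeR adjusted p = 0.000984), and Obp56d at 629, 587 and 752 CPM (log2 1.20 ± 0.20, edgeR adjusted p = 0.000651). These last 3 were also higher against each line. Fat body markers were high in the same libraries: of 5 tested, 3 were higher and 1 lower in ProsB5 thoraces, and the list of 6 summed to 11050 to 13950 CPM there against 6669 to 8448 CPM in control thoraces. Lsp2, a larval serum protein gene, stood at 3083, 1077 and 1383 CPM in ProsB5 thoraces and 42.1 to 766 CPM in control thoraces, highest in replicate 1 like Obp99b. The part of fat body in these results was not tested. Ir92a was the member lower against each line: 0.0576, 0.140 and 0.0581 CPM in ProsB5 thoraces and 0.335 to 0.581 CPM in control thoraces (log2 -2.40 ± 0.54). It passed the low-count filter only through the control thoraces, so no p-value is given for it. Gr43a (-2.28), Ir8a (-0.93) and Ir31a (-0.79) were the other lower calls.

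In Ter94 thoraces 8 of 13 tested Gr, 7 of 17 Ir and 3 of 9 Or members were higher, and 13 of 27 Obp members were lower and 2 higher, where 29.7% of all genes were higher and 28.4% lower. The Ir and Or shares lay near that background. Moreover, 7 tested members (Gr43b, Gr59d, Gr63a, Ir51a, Obp51a, Obp58b and Or45b) passed the low-count filter only through the Ter94 libraries. The first 4 were called higher, a direction that passing in this way favours, and the rest were not called. Without the 7, the higher members were 5 of 10 Gr, 6 of 16 Ir and 3 of 8 Or, and 13 of 25 Obp members were lower. Gr59d stood at 0.589, 0.579 and 0.727 CPM in Ter94 thoraces, 56 reads in all, with a single read in the 6 control thoraces, a ratio of 121 (95% counting interval 20.8 to 4857). Ir51a, annotated as a pseudogene, stood at 1.39, 1.61 and 1.25 CPM in Ter94 thoraces and 0.0305 to 0.182 CPM in control thoraces (log2 3.92 ± 0.42). Gr63a, a subunit of the carbon dioxide receptor, stood at 1.18, 0.933 and 0.589 CPM in Ter94 thoraces and 0.0627 to 0.183 CPM in control thoraces (log2 2.79 ± 0.70), while its partner Gr21a was at 0.0693 CPM or less in Ter94 thoraces and was not tested. Gr43b stood at 1.42, 1.71 and 1.18 CPM in Ter94 thoraces and 0.0943 to 0.351 CPM in control thoraces (log2 2.46 ± 0.55). Ir8a stood at 4.99, 3.92 and 3.91 CPM in Ter94 thoraces and 0.487 to 1.25 CPM in control thoraces (log2 2.20 ± 0.18, edgeR adjusted p = 5.62e-07). The sugar receptors Gr64f (log2 1.92), Gr61a (1.41) and Gr64a (0.61) and the bitter receptor Gr66a (1.25) were higher against each line too.

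The falls in Ter94 thoraces were led by Ir92a (0.0346, 0.0322 and 0 CPM, log2 -4.31 ± 0.66). Because Ir92a passed the low-count filter only through the control thoraces, no p-value is given for it. The Obp56 group fell together at 5 of its tested genes: Obp56h (log2 -2.36), Obp56g (-1.82), Obp56e (-1.52), Obp56d (-1.32) and Obp56a (-0.63). Obp56g stood at 20.9, 4.70 and 5.02 CPM in Ter94 thoraces and 26.0 to 35.7 CPM in control thoraces, so that replicate 1 lay apart from replicates 2 and 3. Gr43a (-1.98) and Ir85a (-1.85) completed the 5 largest falls. Obp57a (-0.75), Obp57c (-0.58) and Obp57e (-1.44) fell as well. With replicates 2 and 3 summed into 1 library, 35 of the 38 calls remained, 20 higher and 15 lower. In Ter94 thoraces 5 of 6 neuron markers were also higher, summing to 1028 to 1355 CPM there and 723 to 906 CPM in control thoraces, and gut markers summed to 153 to 523 CPM there against 2230 to 3204 CPM in control thoraces; their part in these results was not tested.

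**Figure D5:**
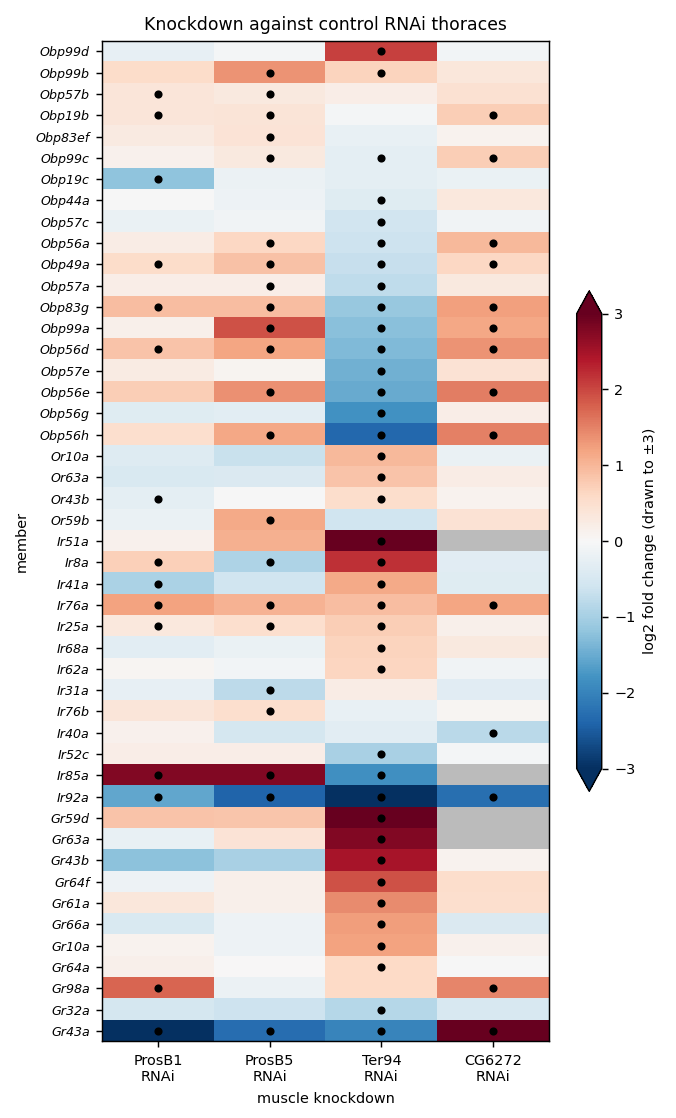
Log2 fold change of each knockdown against both control lines averaged for the 47 members called in at least 1 of them, ordered by family and by the Ter94 value; dots mark calls at an edgeR adjusted p under 0.05, grey marks members not tested, and colours stop at 3 on the log2 scale. The Obp block is mostly red for ProsB5 and CG6272 and mostly blue for Ter94, whereas the Gr block is mostly red for Ter94.

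In CG6272 thoraces 9 of 26 tested Obp, 2 of 11 Gr, 1 of 15 Ir and 0 of 8 Or members were higher, where 13.3% of all genes were. Obp56e stood at 2.36, 3.60 and 3.26 CPM in CG6272 thoraces and 0.700 to 1.53 CPM in control thoraces (log2 1.54 ± 0.25, edgeR adjusted p = 0.00478), and Obp56d at 597, 865 and 681 CPM against 177 to 375 CPM in control thoraces (log2 1.35 ± 0.21, edgeR adjusted p = 0.00377). Both rose against each control line, as did Obp56a (log2 0.97), Obp99c (0.74) and Gr98a (1.46). Gr43a (3.15 against both lines averaged) was called higher against GFP alone (log2 5.90) but not against white alone (0.40), and Obp56h (1.51) against white alone (2.46) but not against GFP alone (0.57). Ir92a (-2.26) and Ir40a (-0.80) were the 2 falls, and of these Ir92a held against each line. Without the control thoraces high in ninaE 5 members were called, and without those high in Acp36DE 3.

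Side by side, 47 members were called in at least 1 knockdown and 6 in all 4, and the matching shares over all genes were not computed. Ir76a was higher in all 4, at 6.09 to 8.80 CPM over the 12 knockdown libraries, against 1.47 to 2.10 CPM in GFP thoraces and 5.68 to 6.82 CPM in white thoraces. Against white alone its rise was not called in any of the 4 knockdowns. Ir92a was lower in all 4, at 0 to 0.218 CPM over the 12 knockdown libraries against 0.335 to 0.581 CPM in the control thoraces, without overlap, although its call in ProsB1 thoraces was lost under 13 of 18 alternatives. Ir92a passed the low-count filter only through the control thoraces, so its falls are descriptions. The library of CG6272 replicate 2 was apart from its group for some members, with Ir62a at 4.46 CPM against 16.7 and 17.5 CPM in replicates 1 and 3.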

How the data were processed

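RNA-seq libraries of heads and thoraces were prepared with a stranded kit for mRNA, per the labels' protocols. The submitters' processing notes name STAR and the build BDGP5; no source used here gives the counting tool, its annotation or its strand setting. The deposited files hold raw counts per gene symbol, as the authors made them. Their 5 summary rows, 19.4 to 31.2% of counts, name no gene and stayed out of library sizes. CPM is counts per 1000000 reads in genes.

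Fold changes came from edgeR 4.0.16 (R 4.3.3) quasi-likelihood tests with TMM scaling and filterByExpr (minimum count 10, minimum total 15). P-values were two-sided and adjusted by Benjamini-Hochberg over all genes tested; a call is an adjusted p under 0.05, and SE is the log2 fold change over the square root of F. Heads were fitted apart from thoraces, control heads with the GFP and white thoraces, CG6272 with the same controls, and the other thorax groups in 1 fit. The p-values set the difference between groups against the spread between these libraries. Scripts were tested on simulated counts.

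Same-numbered head libraries deviated together (correlations 0.203, 0.155 and 0.239, all above 0.1), so a fit with that number as a block stands beside the results in heads; in thoraces, ProsB1 and ProsB5 numbers met this limit with GFP (0.128 to 0.764) but not with white (lowest -0.455), and no other thorax comparison met it, so the block is given there as an alternative only. Alternatives were RLE scaling, library totals, no filter, DESeq2 1.42.0, left-out replicates and single control lines. Further ones, chosen after seeing the data, were the white against GFP comparison, leaving out thoraces high in ninaE or Acp36DE, and summing Ter94 replicates 2 and 3. Members and lists were chosen with earlier results of these data known. Named genes were all called members of a comparison where there were 10 or fewer, otherwise the 5 largest changes each way (10 for tissue), the co-receptors, the most abundant members and those nearest the threshold. Symbols, exon lengths, overlaps and neighbours came from a BDGP6 annotation, in which all 112 members matched; no coordinates are given because the builds differ. Intervals cover counting error only.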

Additional observations from a re-analysis of the deposited data

Results flagged for a closer look

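Among the 6 control thoraces, 3 of 41 values tested with Dixon's criterion stood apart from the rest; chance gives about 1 in 20. The summed Obp level was 1706 CPM in GFP replicate 3, against 2045 to 2191 CPM in the other 5 control thoraces. Orco was 0.904 CPM in the same library, against 0.0913 to 0.283 CPM in the other 5. Obp19c was 0.670 CPM in GFP replicate 2, against 0.251 to 0.396 CPM in the other 5.

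A further signal came from genes outside the symbol rule. The counts list 6 odorant binding protein genes under older symbols: Os-E (Obp83b), Pbprp1 (Obp69a), Pbprp2 (Obp19d), Pbprp3 (Obp83a), Pbprp4 (Obp84a) and Pbprp5 (Obp28a), matched through RefSeq synonyms. They summed to 2435 ± 155 CPM (SD, n = 3) in control heads and 214 ± 24.4 CPM (SD, n = 6) in control thoraces. All 6 were called higher in control heads, with log2 fold changes of 2.82 to 7.73 (edgeR), and 0 of the 6 were called in Amyrel heads.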

How the results depend on the processing

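Total counts of called members stayed within 1.5 times of their value, except as follows. In Amyrel heads the 6 calls (4 higher) became 11 (8 higher) with DESeq2, 2 higher with the replicate block, and 3 to 7 (1 to 5 higher) with 1 library left out. With 1 library left out, calls ranged from 7 to 10 for white against GFP (7 without white replicate 3), from 8 to 13 for ProsB1 (9 without ProsB1 replicate 1, 8 without ProsB1 replicate 2), and from 9 to 14 for CG6272 (9 without white replicate 3). With white as the only control there were 14 calls for ProsB5 and 8 for CG6272. Without the control thoraces high in ninaE CG6272 had 5, and without thoraces high in Acp36DE there were 8 for ProsB1, 14 for ProsB5 and 3 for CG6272. With 1 library left out, heads against thoraces kept 94 to 100 calls, ProsB5 15 to 21 and Ter94 33 to 40. The replicate block gave 96 calls for heads against thoraces, 11 for white against GFP, 15 for ProsB1, 21 for ProsB5, 39 for Ter94 and 11 for CG6272. Counts in 1 direction moved more. The 5 lower calls of ProsB1 became 1 to 3 under each alternative but RLE scaling and GFP alone, and the 4 lower calls of white against GFP became 1 to 3 with 1 library left out. With white as the only control, higher calls were 11 for ProsB5 and 7 for CG6272; with GFP as the only control ProsB5 had 7 lower. Without the control thoraces high in ninaE CG6272 had 4 higher calls; without thoraces high in Acp36DE it had 2, and ProsB5 had 2 lower. The 2 lower calls of CG6272 became 4 with DESeq2 and 1 in several fits.

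With 1 library left out, Ir8a ranged from -0.0216 to 0.416 (log2) and Ir93a from -0.0869 to 0.286 in Amyrel heads, both below 0 without Amyrel replicate 1 and neither called. Signs also turned for Obp83g in ProsB1 thoraces against white alone (-0.29); and for Gr43a against GFP alone in ProsB5 (0.47) and Ter94 (0.77) thoraces. Library totals in place of TMM moved the median of all genes to 0.22 (log2) for heads against thoraces and 0.23 for Ter94, where 25 higher and 15 lower members were then called. A threshold of 1 CPM left 91 members and one of 0.1 CPM gave 166. Depth limits receptors near 3 reads, above all Or genes in thoraces.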
